A study of Mus musculus with 14 samples.

Results

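The class 3 semaphorins, a family of secreted guidance cues, and 3 plexin receptors were followed through liver sinusoidal endothelial cells (LSEC), lung endothelial cells and thymus cells of mice with and without Cre-mediated loss of FoxO transcription factors. Members were all probe sets that carried the symbol of 1 of 10 genes. The ligands were Sema3a, Sema3b, Sema3c, Sema3d, Sema3e, Sema3f and Sema3g, and the receptors were Plxna1, Plxna2 and Plxnd1. Probe sets were taken by symbol and not by level, but the genes were chosen with earlier results of these data known. Members made up 25 of the 45037 probe sets of the array that were not controls, 18 for semaphorins and 7 for plexins. None was shared with another gene. A probe set was tested where its highest tissue mean reached 6.87 on the log2 scale, the 40th percentile over the array. This left 18 member probe sets of 9 genes, 12 for semaphorins and 6 for plexins. Sema3b, with 3 dim probe sets, was not tested. The members just inside the limit were Sema3d 1429459_at, at 0.45 above it, and Sema3e 1419717_at, at 0.47 above it. Those just outside were Sema3b 1448415_a_at and Sema3e 1442226_at, each 0.53 below it.

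Class 3 semaphorins are released by one cell and bind receptor complexes on another. Most of them attach to a neuropilin, which holds the ligand, while a plexin of the A class carries the signal into the cell towards the actin cytoskeleton. Sema3e is an exception, since it binds Plxnd1, a plexin concentrated in blood vessels, without a neuropilin. First known for repelling growing axons, these cues are also made by endothelial cells and the cells around them, and they limit or steer the growth of vessels. Furin-like convertases cut the secreted ligands and thereby change their potency.

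All mice carried floxed (L/L) alleles of Fk1, Fk2 and Afx, older names of Foxo1, Foxo3 and Foxo4, on an FVBn background, controls included. Cre+ mice were MxCre+ and control mice MxCre-, and both were Fk1 L/L, Fk2 L/L and Afx L/L. MxCre is a recombinase gene behind an interferon-inducible promoter, which is active in many cell types and not in endothelium alone. The groups were Cre+ LSEC (3 arrays) and control LSEC (3), Cre+ lung endothelial cells (2) and control lung endothelial cells (2), and Cre+ thymus cells (2) and control thymus cells (2). The labels give no age, no schedule of Cre induction and no method of cell isolation. They do not say that replicates were separate animals, so p-values measure the spread between samples, which may be technical. One array was run per sample, and the number of arrays limits the precision.

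Arrays of the same group correlated at 0.97 to 0.99 over the 27022 probe sets tested. The floxed genes checked the labels. Foxo1 fell in Cre+ LSEC on all 3 probe sets tested, by 0.93 to 3.56 on the log2 scale, and in Cre+ thymus by 1.02 to 1.80. In Cre+ lung endothelial cells its log2 differences were -0.51 to -1.29, with adjusted p of 0.0936 to 0.696. The one Foxo4 probe set tested gave log2 differences of -2.15 in LSEC, -1.10 in lung (adjusted p = 0.344) and -3.24 in thymus. Foxo3 fell by 0.53 in LSEC on 1434832_at and rose by 0.68 in thymus on the same probe set. In lung its means there were 8.67 in Cre+ and 8.56 in control arrays. On 1434831_a_at the lung means were 8.55 and 8.25, and on 1450236_at 6.92 and 6.91. Foxo3 levels thus did not fall in Cre+ lung or thymus, and gave no check of the labels there. Pan-endothelial markers had mean log2 levels of 9.97 to 10.25 in Cre+ and 10.41 to 10.76 in control LSEC, and of 9.29 to 9.39 in Cre+ and 9.54 to 9.86 in control lung arrays. In thymus they lay between 6.04 and 6.30. The lung arrays also carried markers of other lung cells, as given beside the lung results. No gene of any marker list stood at 0 in all arrays of a group.

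In LSEC, Cre+ samples had less Sema3d and, by a narrow margin, more Sema3g. Of the 18 member probe sets 1 was called higher and 1 lower (limma, Benjamini-Hochberg adjusted p under 0.05 over all 27022 probe sets tested). Over the array, 2.62% of probe sets were called higher and 2.61% lower in Cre+ LSEC. The median log2 fold change was -0.13 over the 18 member probe sets and 0.01 over all probe sets tested. The groups did not overlap on 3 of the 18 member probe sets, those of Sema3d and Sema3g and Sema3c 1420696_at, against 22.8% of probe sets over the array. Log2 fold changes are Cre+ minus control throughout. In such bulk samples fewer cells of a type and less RNA per cell cannot be told apart.

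The promoters of these called genes are shown because the deleted factors are forkhead proteins, and because both genes have a promoter in the RefSeq table of build GRCm38.p6. That table held promoters for 7 of the 10 members and none for Sema3b, Sema3f and Plxna1. Each promoter spans 250 bases before to 50 after the gene's start. Sema3d lies on chromosome 5 (chr5:12382916-12383215, plus strand) and Sema3g on chromosome 14 (chr14:31217623-31217922, plus strand). Capitals mark the letters TGTTT or its reverse complement AAACA, the core of forkhead sites, a motif chosen after the sequences were seen.
Sema3d: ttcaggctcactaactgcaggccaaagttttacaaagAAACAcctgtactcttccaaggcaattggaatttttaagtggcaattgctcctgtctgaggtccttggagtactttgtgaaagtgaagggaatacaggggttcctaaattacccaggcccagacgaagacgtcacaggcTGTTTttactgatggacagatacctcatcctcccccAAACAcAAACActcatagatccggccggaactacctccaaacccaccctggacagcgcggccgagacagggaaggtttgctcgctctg
Sema3g: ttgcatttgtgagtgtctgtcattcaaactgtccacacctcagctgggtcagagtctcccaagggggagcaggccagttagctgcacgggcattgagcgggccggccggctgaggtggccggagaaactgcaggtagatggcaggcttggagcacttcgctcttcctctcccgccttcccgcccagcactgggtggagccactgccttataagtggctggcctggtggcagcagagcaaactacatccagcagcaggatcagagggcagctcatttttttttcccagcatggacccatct
The longer forkhead motif TGTTTAC, searched on both strands, was found in none of the 7 member promoters and in 3.65% of all 32851 promoters of that length. TGTTT, which lies within TGTTTAC, was found 4 times in Sema3d, 2 times in Plxnd1, once each in Sema3a and Sema3e and not in Sema3c, Sema3g or Plxna2. At least 1 copy is held by 50.5% of all promoters, and at least 4 copies by 3.24%. The Sema3d promoter holds 49.7% G and C, beside a median of 52.7% over all promoters. Among the semaphorins Sema3a (41.3%) is lower, and Sema3e (50.7%), Sema3g (58.7%) and Sema3c (75.7%) are higher. A match is a description of letters, and binding was not measured.

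Sema3d encodes a secreted semaphorin which, in mouse embryos, keeps the pulmonary veins on their proper course. On 1429459_at its log2 level was 3.73, 5.30 and 4.37 in the 3 Cre+ LSEC arrays, against 7.62, 7.56 and 7.70 in the 3 control LSEC arrays. The control arrays lay within 0.14 of each other, and every Cre+ array stood more than 2 log2 units below the lowest of them. In lung endothelial cells the levels were 7.65 and 7.25 in Cre+ and 7.12 and 7.26 in control arrays. Thymus gave 2.93 and 2.59 in Cre+ and 3.51 and 2.18 in control arrays, the lowest of the 3 tissues. Lung groups overlapped and so did thymus groups, so that the separation by genotype was seen in LSEC alone among the 3 tissues. All thymus arrays lay under the limit of 6.87, where a fall might not show.

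The log2 fold change of Sema3d was -3.16 in LSEC (SE 0.38, 95% interval -3.99 to -2.32, limma adjusted p = 0.000948), 0.26 in lung endothelial cells (interval -0.76 to 1.28, adjusted p = 1) and -0.08 in thymus (adjusted p = 0.971). The fall in LSEC held under all 23 alternatives in which the probe set was tested, with log2 fold changes of -3.58 to -2.78. The genotype effect in LSEC minus that in lung was -3.42 (SE 0.60, adjusted p = 0.0433), in a difference with 0.326% of probe sets called. The effect in LSEC minus that in thymus was -3.08 (SE 0.60, adjusted p = 0.0308), with 1.65% called. Of the 18 member probe sets, 2 were called in the first difference and 1 in the second. These differences between tissues were less firm than the fall itself. The difference from lung kept its call in 9 of 23 alternatives, with adjusted p of 0.0145 to 0.205, and was lost when any array was left out other than Cre+ LSEC 1, Cre+ LSEC 2 or the 2 thymus controls (adjusted p up to 0.205). The difference from thymus kept its call in 10 of 23 (0.00996 to 0.12), and was lost without any array other than Cre+ lung 1 or 2, Cre+ LSEC 1 or 2, or control thymus 1.

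Both sides of the Sema3d change call for care about its size. The Cre+ LSEC level lay under the limit of 6.87, where differences are uncertain, and the control mean stood 0.75 above that limit, a 1.69-fold margin. The second Sema3d probe set, 1453148_at, was designed from the same sequence record and lay below the limit in every tissue. Its levels were 4.14, 4.16 and 3.70 in Cre+ LSEC and 5.18, 4.66 and 5.06 in control LSEC, groups that did not overlap. Without the filter on dim probe sets its log2 fold change was -0.97 (SE 0.27, adjusted p = 0.132), which did not pass. The pair also differed in the order of tissues, since 1453148_at had its lowest group means in LSEC and 1429459_at in thymus.

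**Figure D1:**
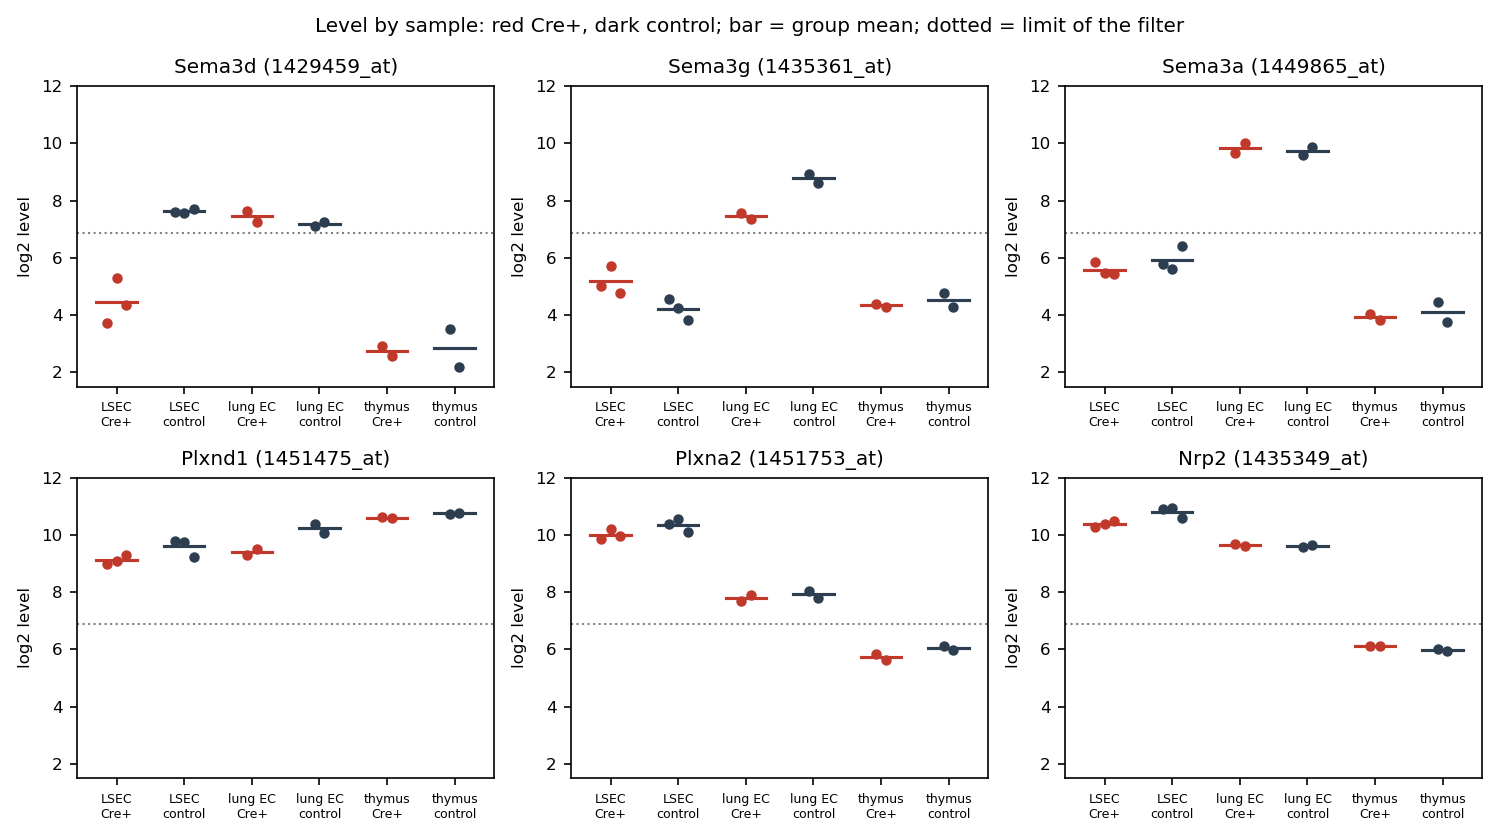
Log2 level of 1 probe set of Sema3d, Sema3g, Sema3a, Plxnd1, Plxna2 and Nrp2 (vertical axis) in each array of the 6 groups (horizontal axis, Cre+ in red left of control in dark), with bars at group means and a dotted line at 6.87; levels cannot be compared between panels. Sema3d is low in Cre+ LSEC (3.73 to 5.30) and near 7.6 in control LSEC, and Sema3g is lower in Cre+ than in control lung arrays while all LSEC arrays lie under the line.

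**Figure D2:**
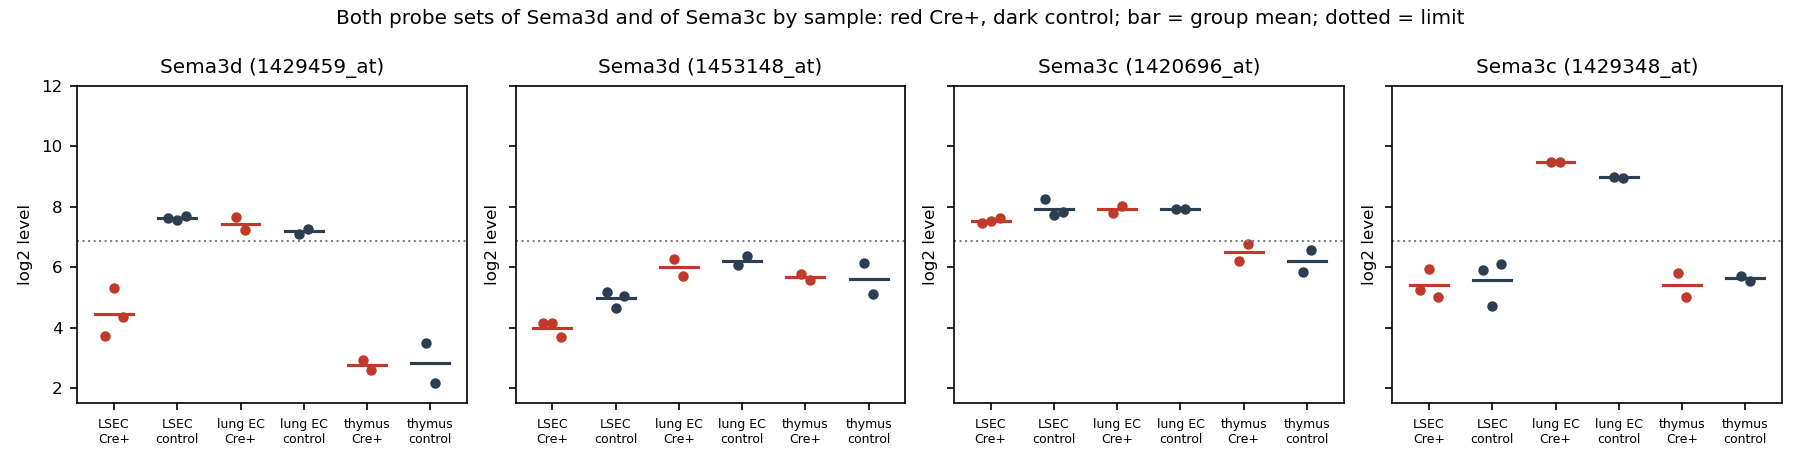
Log2 level (vertical axis) of both Sema3d and both Sema3c probe sets in each array of the 6 groups (horizontal axis, Cre+ in red left of control in dark), with bars at group means and a dotted line at 6.87. Of the Sema3d pair only 1429459_at rises above the line, and the Sema3c pair differs in whether lung stands above LSEC.

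Markers of the sinusoidal cells themselves shifted in the same samples. The list of LSEC markers fell on 9 of 12 genes in Cre+ LSEC, with mean log2 levels of 8.32 to 9.01 in Cre+ and 10.14 to 10.54 in control arrays. Markers of mesenchymal and mural cells, which can also make semaphorins, fell on 1 of 16 genes and had mean log2 levels of 6.82 to 7.23 in Cre+ and 7.04 to 7.39 in control LSEC. The part of these shifts in the Sema3d result was not tested.

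Sema3g encodes a semaphorin made largely by arterial endothelium. Its only probe set, 1435361_at, had log2 levels of 5.02, 5.72 and 4.79 in Cre+ LSEC, against 4.57, 4.25 and 3.82 in control LSEC. Groups did not overlap, but all 6 arrays lay under the limit of 6.87, so the size of any LSEC difference, and of the differences between tissues that use it, is uncertain. In lung endothelial cells, where the gene was well above the limit, levels were 7.58 and 7.34 in Cre+ and 8.93 and 8.62 in control arrays. Both Cre+ lung arrays thus lay more than 1 log2 unit below both controls. Thymus levels were 4.40 and 4.30 in Cre+ and 4.79 and 4.30 in control arrays, all under the limit.

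The log2 fold change of Sema3g was 0.97 in LSEC (SE 0.25, limma adjusted p = 0.0489) and -1.32 in lung (SE 0.30, limma adjusted p = 0.355, lower in both Cre+ arrays). The rise in LSEC kept its call in 4 of 24 alternatives, with adjusted p of 0.0363 to 0.166, and lost it when any array other than control LSEC 1 or Cre+ LSEC 3 was left out, with log2 fold changes of 0.70 to 1.16 over those fits. The lung difference did not pass; its unadjusted p was 0.00118 and its interval -1.98 to -0.65. The 2 genotype effects differed by 2.28 (adjusted p = 0.0399), a call that was kept in 9 of 24 alternatives (adjusted p 0.0281 to 0.199) and lost without any array other than control LSEC 1 or Cre+ LSEC 2 or 3. Against thymus the LSEC effect differed by 1.16 (adjusted p = 0.178). Lung and thymus effects differed by -1.13 (adjusted p = 0.622), in a comparison with 0.0222% of probe sets called.

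Markers of arterial endothelium were measured in the same arrays. Their mean log2 level was 8.02 to 8.23 in Cre+ and 7.72 to 7.82 in control LSEC, and 8.20 to 8.30 in Cre+ and 8.43 to 8.67 in control lung arrays. In thymus it was 6.56 to 6.99 in Cre+ and 6.47 to 6.63 in control arrays. In LSEC and lung these groups lay apart in the same direction as those of Sema3g, and in thymus they overlapped. The lung direction was not particular to arterial markers, since pan-endothelial markers had 9.29 to 9.39 in Cre+ and 9.54 to 9.86 in control lung. In LSEC the pan-endothelial list lay lower in Cre+, unlike Sema3g. Single arterial genes were mixed in LSEC, with log2 fold changes from -0.48 for Dll4 to 1.03 for Gja4. Of 11 arterial genes tested, 1 was called higher in Cre+ LSEC and none in lung. There 3 had an unadjusted limma p under 0.05, as did 1278 of all 27022 probe sets tested. The part of these markers in the Sema3g values was not tested.

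Sema3d, Sema3a, Sema3e and Sema3c all lie on chromosome 5, in that order. No protein-coding gene separates Sema3d from Sema3a, 3 lie between Sema3a and Sema3e, and 15 between Sema3e and Sema3c, in the same assembly. No genotype call was made for these neighbours. In LSEC the log2 fold changes of Sema3a were -0.03, 0.01 and -0.35 on its 3 probe sets, those of Sema3e -0.32 and -0.10, and those of Sema3c -0.40 and -0.17, with adjusted p of 0.329 or more (limma). Only 1427673_a_at of Sema3e, with an interval of -0.45 to 0.26, and 1420696_at of Sema3c, with -0.85 to 0.05, had LSEC levels above the limit of 6.87. The other 5 probe sets, all 3 of Sema3a among them, had LSEC means under it in both genotypes, where a fall might not show.

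Among the receptors no genotype call was made. Plxnd1, the vascular plexin that Sema3e binds, came nearest. Its log2 levels on 1451475_at were 8.99, 9.08 and 9.30 in Cre+ LSEC, against 9.80, 9.76 and 9.23 in control LSEC, groups that overlapped through control replicate 3. In lung endothelial cells they were 9.31 and 9.51 in Cre+ and 10.38 and 10.07 in control arrays, which did not overlap. With 2 arrays a group, 6 of the 18 member probe sets did not overlap in lung, Plxnd1 and Sema3g among them. The share over the array was not computed there, so the separation in lung adds little. In thymus the Plxnd1 levels were 10.61 and 10.58 in Cre+ and 10.73 and 10.76 in control arrays.

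The log2 fold change of Plxnd1 was -0.47 in LSEC (SE 0.15, limma adjusted p = 0.113), -0.81 in lung (SE 0.19, unadjusted p = 0.00118, adjusted p = 0.355) and -0.15 in thymus (adjusted p = 0.827). Leaving out control LSEC replicate 3 gave -0.65 (adjusted p = 0.0176), the only setting of those run that made a call. The LSEC and lung effects differed by 0.34 (adjusted p = 0.69).

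Plxna1 and Plxna2 are signalling partners of the neuropilins. The Plxna1 probe set 1428623_at had a log2 fold change of 0.02 in LSEC, with a narrow interval of -0.17 to 0.21, and of 0.11 in lung (-0.12 to 0.35). The 4 Plxna2 probe sets gave -0.36, -0.33, 0.02 and 0.02 in LSEC, none called (adjusted p = 0.218 or more). Their intervals reached down to -0.79 on 1429772_at and -0.64 on 1451753_at.

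Over the 18 member probe sets no call was made in lung endothelial cells, where 0.0333% of all probe sets were called, or in thymus, where 0.448% were (limma). An unadjusted p under 0.05 was reached in lung by 2 of them, Sema3g and Plxnd1, and in thymus by 0. Over all 27022 probe sets tested it was reached by 1278 in lung and 3108 in thymus. The median log2 fold change of the members was -0.01 in lung and 0.05 in thymus, and 0.01 over all probe sets in each. Thymus values ran from -0.33 to 0.48 with adjusted p of 0.472 or more.

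**Figure D3:**
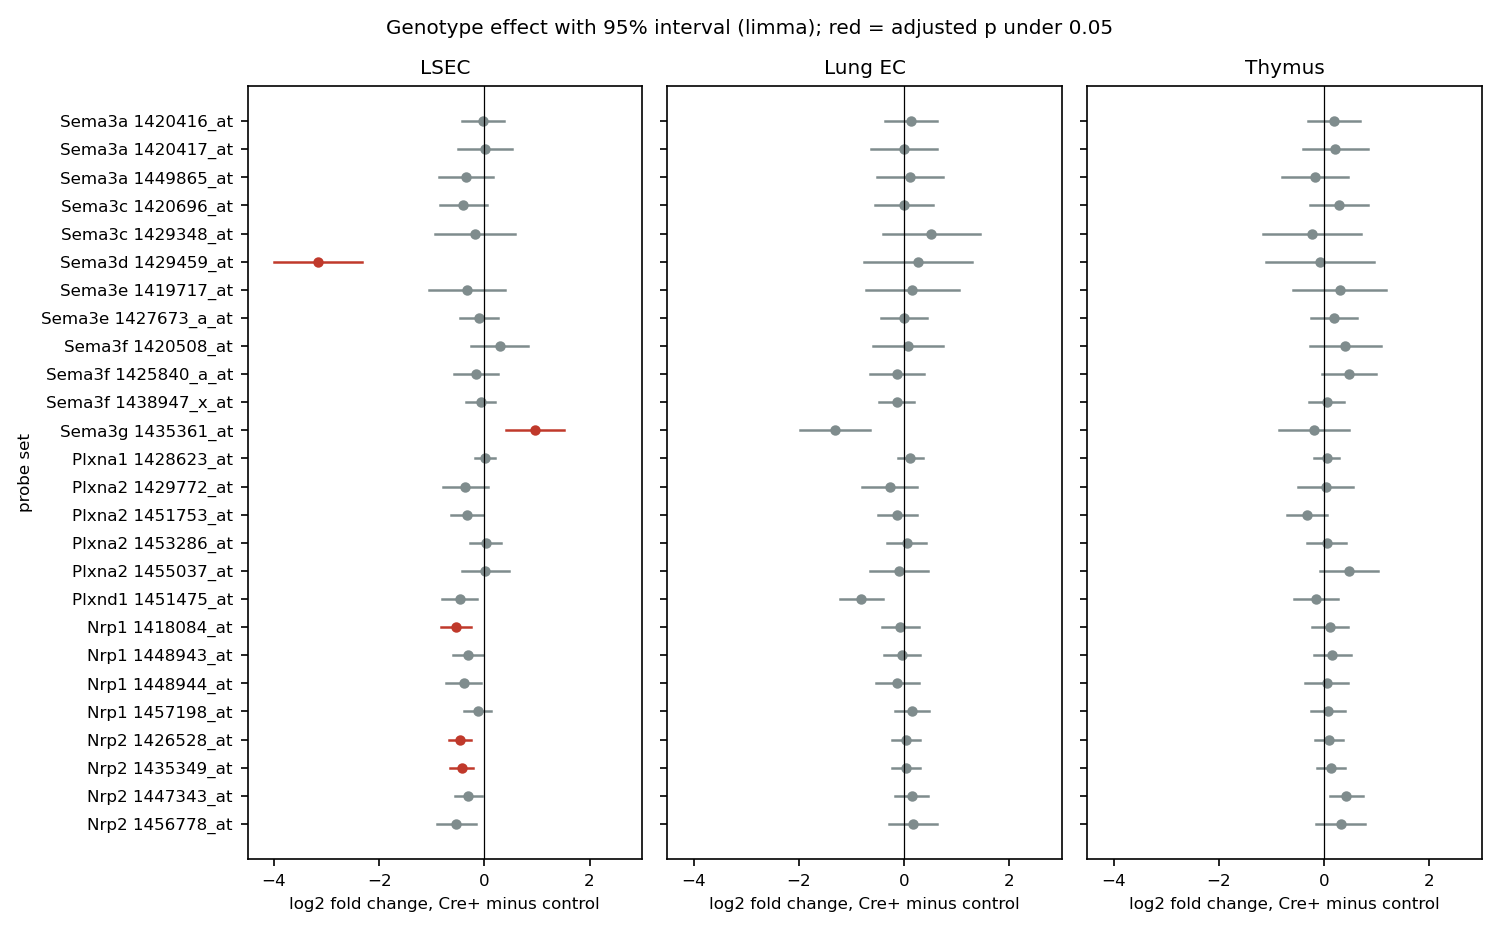
Log2 fold change, Cre+ minus control, with its 95% interval (horizontal axis) for the 18 tested probe sets of semaphorins and plexins and the 8 of neuropilins (vertical axis) in LSEC, lung endothelial cells and thymus. Calls, in red, appear in the LSEC panel alone, at -3.16 for Sema3d, 0.97 for Sema3g and -0.43 to -0.53 for 3 neuropilin probe sets.

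The neuropilins, which bind class 3 semaphorins and vascular endothelial growth factors, were called lower in Cre+ LSEC on 3 of 8 probe sets, 1 of Nrp1 and 2 of Nrp2, beside 2.61% called lower over the array. All 8 had a negative log2 fold change, with a median of -0.41. The LSEC and pan-endothelial markers were also lower in these arrays, on 9 of 12 and 2 of 12 genes, and their part in the neuropilin values was not tested. On Nrp1 1418084_at the log2 levels were 10.21, 10.03 and 10.34 in Cre+ and 10.82, 10.80 and 10.55 in control LSEC. On Nrp2 1426528_at they were 9.14, 9.06 and 9.19 in Cre+ and 9.66, 9.66 and 9.46 in control LSEC. Nrp2 1435349_at gave 10.26, 10.39 and 10.48 in Cre+ and 10.89, 10.94 and 10.59 in control LSEC. No Cre+ array reached the lowest control array on any of the 3.

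The log2 fold changes were -0.53 (SE 0.13, limma adjusted p = 0.037), -0.46 (SE 0.10, adjusted p = 0.0196) and -0.43 (SE 0.10, adjusted p = 0.0329) in that order. Each call depended on the fit. Nrp2 1426528_at kept it in 13 of 23 alternatives (adjusted p 0.00873 to 0.101) and lost it without control LSEC 1 or 2 or Cre+ LSEC 1 or 2. Nrp1 1418084_at kept it in 8 of 23 (0.0131 to 0.133) and lost it without replicate 1 or 2 of Cre+ LSEC or of any control group. Nrp2 1435349_at kept it in 7 of 24 (0.00917 to 0.164), and lost it without any array other than control LSEC 3, Cre+ LSEC 3 or the 2 Cre+ thymus arrays. In lung 0 of 8 neuropilin probe sets were called and 0 had an unadjusted p under 0.05, and in thymus 0 were called and 1 had such a p. No difference of neuropilin effects between tissues was called, with 5 unadjusted p under 0.05 of 8 for LSEC against lung and 6 of 8 for LSEC against thymus. Over all 27022 probe sets tested, 2694 and 4316 had such a p in these differences. The 8 probe sets stand for only 2 genes.

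Tissue set the members apart far more than genotype did, as it did probe sets over the whole array. In control mice 4 of the 18 member probe sets were called higher and 8 lower in LSEC than in lung endothelial cells, beside 23.3% and 20.0% of all probe sets. Against thymus, 10 were higher and 1 lower in LSEC (33.5% and 32.6% over the array). Comparing lung with thymus, 14 were higher and 2 lower in lung (30.2% and 32.1% over the array). The comparisons of LSEC and of lung share the same control arrays. Members that passed the filter through a single tissue lean these counts towards that tissue. The median log2 differences of the members were -0.36, 0.74 and 1.94, against 0.06, 0.02 and -0.03 over all probe sets.

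Of the 12 semaphorin probe sets tested, 7 were called lower and 0 higher in control LSEC than in control lung, and 10 were called higher and 0 lower in control lung than in control thymus. Many of these probe sets reached the filter limit by their lung mean alone. They were all 3 of Sema3a, Sema3g, Sema3c 1429348_at, Sema3f 1420508_at, Sema3e 1419717_at and Sema3d 1429459_at. For them the selection itself favoured a higher level in lung, so these counts are not a test of it. Where a level lay under 6.87, as for Sema3a and Sema3g in LSEC and thymus, the size of the difference is uncertain. All 3 Sema3a probe sets were lower in control LSEC than in control lung, with log2 differences of -3.48, -2.55 and -3.80 (limma adjusted p of 2.18e-05 or less). Sema3a, the founding growth cone repellent of the family, had log2 levels on 1420416_at of 6.36, 6.19 and 5.85 in Cre+ and 6.16, 5.84 and 6.48 in control LSEC. In lung they were 9.69 and 9.84 in Cre+ and 9.43 and 9.85 in control arrays, and in thymus 5.61 and 5.55 in Cre+ and 5.54 and 5.26 in control arrays. No LSEC or thymus array came within 2 log2 units of a lung array. Control LSEC exceeded control thymus by 0.76 on this probe set (adjusted p = 0.00592), a call lost without control thymus 2 (adjusted p = 0.0637).

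Sema3g was lower in control LSEC than in control lung, with a log2 difference of -4.57 (limma adjusted p = 5.97e-07), and LSEC and thymus did not differ beyond their spread (difference -0.33, adjusted p = 0.312). Sema3f, a ligand of Nrp2, was ordered lung above LSEC above thymus on 2 of its 3 probe sets. On 1425840_a_at the log2 levels were 8.82, 9.29 and 8.84 in control LSEC, 9.82 and 10.01 in control lung and 7.99 and 7.59 in control thymus. The same order held on 1420508_at, where the LSEC to lung difference of -0.99 (adjusted p = 0.0137) was lost without either control lung array (adjusted p up to 0.0692). The third, 1438947_x_at, was level at 10.03 to 10.54 across the control arrays of all 3 tissues, with no call in any comparison.

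Sema3c, needed for the outflow tract of the developing heart, read differently on its 2 probe sets, which were designed from different records. On 1429348_at the log2 levels were 5.92, 4.73 and 6.10 in control LSEC and 8.98 and 8.97 in control lung, a difference of -3.39 (limma adjusted p = 4.69e-05). On 1420696_at they were 8.27, 7.72 and 7.84 in control LSEC and 7.94 and 7.93 in control lung, a difference of 0.01 with an interval of -0.50 to 0.51. Both probe sets placed lung above thymus, by 3.34 and 1.72. A difference of Sema3c between liver and lung endothelium therefore depends on which probe set is read.

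Sema3d on 1429459_at differed from thymus in both endothelial sources, by 4.78 in control LSEC and 4.35 in control lung (limma adjusted p of 8.33e-06 or less), while LSEC and lung differed by 0.43 (interval -0.50 to 1.36, adjusted p = 0.436). Sema3e differed little between tissues on one of its 2 tested probe sets. Its probe set 1427673_a_at ran from 7.60 to 8.61 over all 14 arrays with no call, and 1419717_at was higher in control lung than in control thymus by 1.24 (adjusted p = 0.0185), lost without either control lung array or control thymus 1 (adjusted p up to 0.177). The Sema3b probe sets ran from 3.11 to 6.59 over all arrays, below the limit of the filter in each tissue.

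The lung arrays with high ligand levels also held markers of other cells. Mesenchymal and mural markers were lower in control LSEC than in control lung on 10 of 16 genes and higher on 0. Their mean log2 level was 7.04 to 7.39 in control LSEC and 9.51 to 9.58 in control lung. Lung epithelial markers were lower in control LSEC on 6 of 9 genes tested and higher on 0, with mean log2 levels of 7.23 to 7.27 in control LSEC and 9.63 to 9.72 in control lung. Fibroblasts, mural cells and epithelium can make class 3 semaphorins, and the part of these cells in the lung levels was not tested.

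The receptors had no common order of tissues. Plxna2, a plexin also used by class 6 semaphorins, was highest in LSEC. Its log2 levels on 1451753_at were 9.86, 10.19 and 9.96 in Cre+ and 10.36, 10.56 and 10.08 in control LSEC. They were 7.67 and 7.91 in Cre+ and 8.04 and 7.80 in control lung, and 5.83 and 5.63 in Cre+ and 6.13 and 5.98 in control thymus. The 3 tissues thus formed 3 separate steps, with control LSEC above control lung by 2.41 and above control thymus by 4.28 (limma adjusted p of 9.03e-07 or less). Probe sets 1453286_at and 1455037_at gave the same order, with LSEC above lung by 1.80 and 2.24.

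The fourth Plxna2 probe set, 1429772_at, was designed from the same record as 1453286_at and still placed thymus above lung. Its log2 levels were 6.47 and 6.05 in control lung against 7.29 and 7.60 in control thymus, a difference of -1.18 (limma adjusted p = 0.00115), opposite in sign to the other 3. It put LSEC above lung as they did, by 1.68. Plxna1 1428623_at was higher in control LSEC than in control thymus by 0.64 and in control lung than in control thymus by 0.57, while LSEC and lung differed by 0.07 (interval -0.15 to 0.28).

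Plxnd1 was highest in thymus. Its log2 difference was -1.15 for control LSEC minus control thymus (limma adjusted p = 0.000104) and -0.63 for control LSEC minus control lung (adjusted p = 0.0122), the second lost without control lung 1 (adjusted p = 0.124). For control lung minus control thymus it was -0.52 (adjusted p = 0.0298), a call lost without control lung 2 or either control thymus array, and under other scalings or without the filter (adjusted p up to 0.195). Neuropilins were higher in control LSEC than in control lung on 5 of 8 probe sets and lower on 0, and in control LSEC above control thymus on 7 and below on 1. For Nrp2 1435349_at these differences were 1.19 and 4.82.

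**Figure D4:**
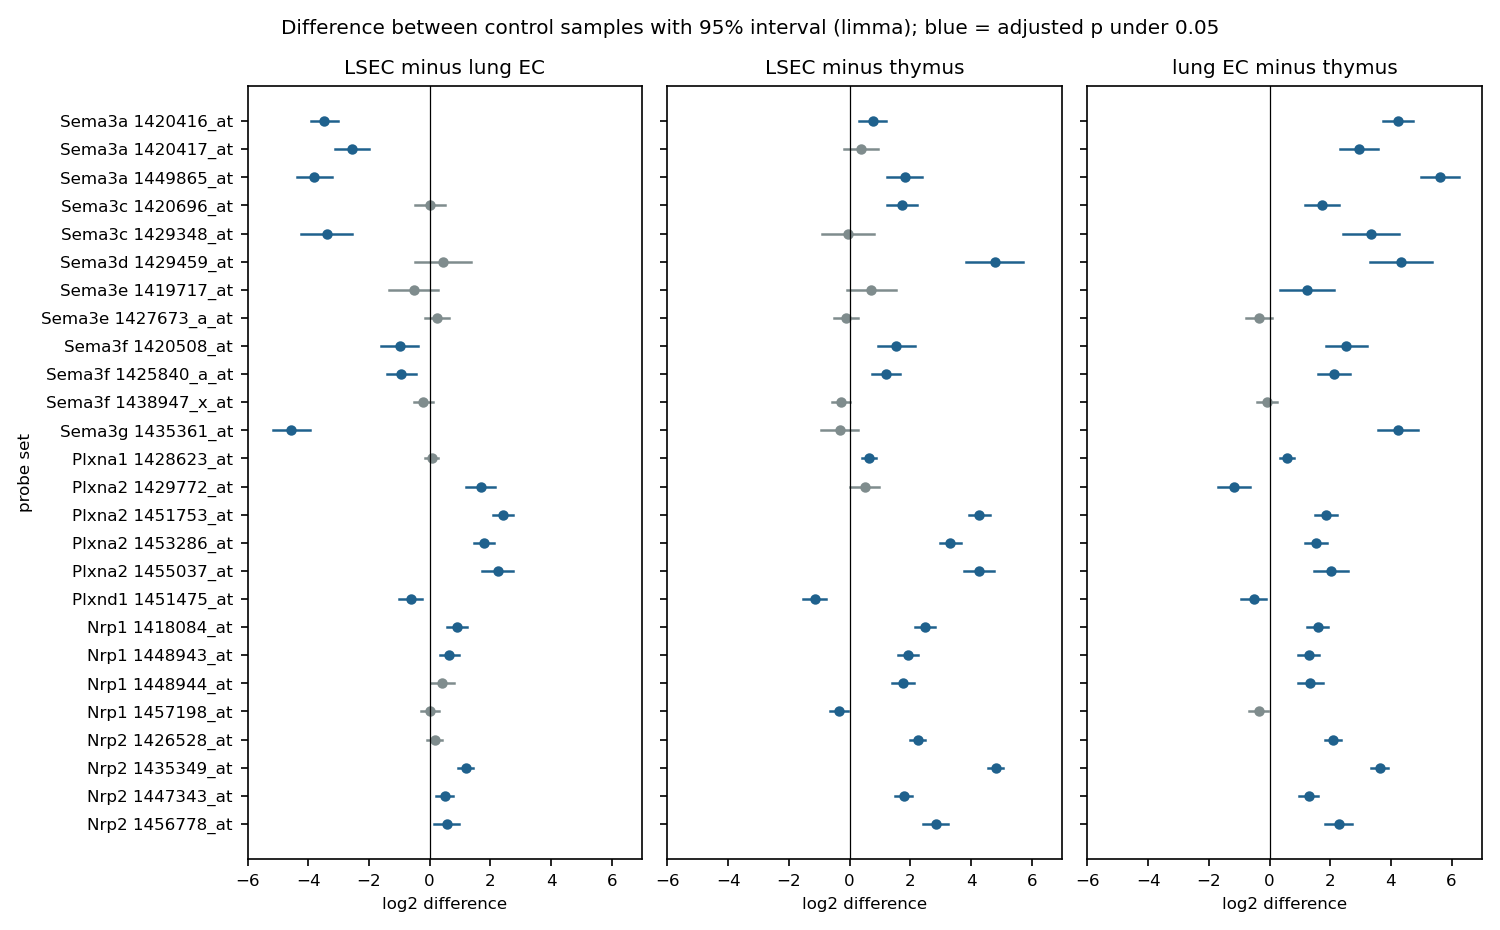
Log2 difference between control samples with its 95% interval (horizontal axis) for LSEC minus lung endothelial cells, LSEC minus thymus and lung endothelial cells minus thymus, for each tested probe set of semaphorins, plexins and neuropilins (vertical axis), with calls in blue. Sema3a and Sema3g lie far left in the first panel, at -2.55 to -4.57, and all 4 Plxna2 probe sets lie right, at 1.68 to 2.41.

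Over 5 lists of related and other guidance genes, 3 falls and 1 rise were called in LSEC. The genes tested were 6 other plexins, 11 other semaphorins, 30 effectors, 3 convertases and 14 other guidance genes. Over the array, 2.61% of probe sets were called lower and 2.62% higher. The few calls are near what those shares give over so many genes, and are not a result about the lists. Of 6 other plexins tested, 1 was called in LSEC, a fall of Plxna4, an A-class plexin. Its log2 levels were 6.62, 7.33 and 7.04 in Cre+ and between 7.74 and 8.21 in control LSEC, without overlap (log2 fold change -0.99, SE 0.19, limma adjusted p = 0.0112). That call was kept in 21 of 23 alternatives (adjusted p up to 0.073). None of 11 tested semaphorins of other classes was called in LSEC, where 1 had an unadjusted p under 0.05, and none of 3 convertases, where 0 had. Of 30 intracellular effectors 1 fell and 1 rose, and 7 had an unadjusted p under 0.05. Over the array, 5173 of 27022 probe sets tested had such a p in LSEC. The median log2 fold changes in LSEC were -0.11 for other plexins, -0.04 for other semaphorins, -0.16 for convertases and 0.02 for effectors.

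Rnd3, an atypical small GTPase that loosens actin stress fibres, fell to 8.50, 7.90 and 8.15 in Cre+ LSEC, against 9.04, 9.58 and 9.20 in control LSEC (log2 fold change -1.09, SE 0.20, limma adjusted p = 0.00894). It kept its call in 21 of 24 alternatives, and lost it with only the arrays compared and under both replicate blocks (adjusted p up to 0.0801). Sh3bp1, a Rac GTPase-activating protein that binds plexins, had 7.74, 7.11 and 7.31 in Cre+ and 6.30, 6.26 and 7.11 in control LSEC (0.84, SE 0.22, adjusted p = 0.0495), with the highest control array next to the lowest Cre+ array. Its call was kept in 6 of 24 alternatives (adjusted p 0.00468 to 0.196) and was lost without any array other than control LSEC 3 or Cre+ LSEC 2. Among 14 Slit, netrin and RGM pathway genes tested, 1 was called, a fall of Robo4, the endothelial roundabout receptor, which is also on the pan-endothelial list. Its levels were 9.68, 9.13 and 9.58 in Cre+ and 10.50, 11.03 and 10.61 in control LSEC (log2 fold change -1.25, SE 0.18, adjusted p = 0.0024), and the call held under all 24 alternatives. No gene of these 5 lists was called in lung or in thymus. Unadjusted limma p under 0.05 were reached in lung by 2 other plexins, 1 other semaphorin, 2 effectors, 0 convertases and 3 guidance genes, and in thymus by 1, 3, 4, 0 and 2 genes of these lists. Over all 27022 probe sets tested they were reached by 1278 in lung and 3108 in thymus.

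Genes whose levels followed those of the 2 called members over the 14 arrays were found by Pearson correlation over 13033 genes, as a description, since arrays of one tissue share most of their level. Closest to Sema3d were Frzb, a secreted Wnt antagonist (r = 0.975), Gfpt2, an enzyme of hexosamine synthesis (0.965), and Cdkn2b, an inhibitor of cyclin-dependent kinases (0.964). Frzb averaged 5.73 in Cre+ and 8.20 in control LSEC, 7.79 in Cre+ and 8.32 in control lung, and 4.25 in Cre+ and 3.93 in control thymus. Like Sema3d it was low in Cre+ LSEC and in thymus. Closest to Sema3g were Maob, monoamine oxidase B (0.962), Sdr39u1 (0.961) and Ap2a1, a subunit of a clathrin adaptor (0.960). Maob averaged 5.83 in Cre+ and 5.66 in control LSEC, 7.48 in Cre+ and 7.74 in control lung, and 5.74 in Cre+ and 5.70 in control thymus.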

How the data were processed

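One value per probe set was deposited for each of 14 Affymetrix mouse arrays. The deposited values ran from 0 to 13.8 and were read as log2, a base inferred from their range. Of the authors' summarization and normalization nothing is given in the sources used here. On each array 223 to 312 values were 0. Array medians of 6.75 to 7.04 differed, so arrays were quantile normalized. Probe sets were named from the supplied array annotation: 34945 had 1 symbol, 932 several and 9160 none among those that were not controls, and 34754 single-symbol probe sets were matched to GRCm38.p6 by gene ID. The 64 array controls were left out.

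One model of 6 group means was fitted to all 14 arrays (R 4.3.3, limma 3.58.1 with default eBayes; 8 residual and 3.04 prior degrees of freedom). It gave 9 contrasts over 27022 probe sets, adjusted by Benjamini-Hochberg within each contrast, threshold 0.05. No detection calls were used, so the limit of 6.87 served as the dim limit. The fit was run on simulated data with independent noise between arrays, which could not reveal paired or technical replicates. Members and lists were chosen with earlier results of these data known. The text names every member, both neuropilins, the floxed genes, called genes of 5 pathway lists (up to 4 each by size of change, a gene standing for its brightest probe set) and the 3 genes closest to each called member. Deviations of same-numbered arrays correlated at -0.24 to 0.07, which gave no sign of pairing. With 2 or 3 arrays a group this could not exclude it. Alternatives covered scaling, filter, gene-level testing, variance model, arrays fitted, a 2-fold minimum, replicate number as a block, and omission of single arrays. Promoters came from RefSeq (GRCm38.p6).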

Additional observations from a re-analysis of the deposited data

Results flagged for a closer look

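The genotype effect on 2 members differed between tissues by a test of the difference itself (limma, adjusted over 27022 probe sets). For Sema3d 1429459_at the effect in LSEC minus that in lung endothelial cells was -3.42 on the log2 scale (adjusted p = 0.0433) and minus that in thymus -3.08 (adjusted p = 0.0308). All 3 Cre+ LSEC arrays lay below all 3 control LSEC arrays, while the groups overlapped in lung and in thymus. For Sema3g 1435361_at the effect in LSEC exceeded that in lung by 2.28 (adjusted p = 0.0399). Its 3 Cre+ LSEC arrays lay above the 3 controls and its 2 Cre+ lung arrays below the 2 controls. All LSEC arrays of Sema3g lay under the dim limit, as did the Cre+ LSEC arrays and all thymus arrays of Sema3d 1429459_at. The sizes of these differences are therefore uncertain, and a fall of Sema3d in thymus might not show. These differences kept their calls in 9 of 23, 10 of 23 and 9 of 24 alternatives. Without single arrays their adjusted p reached 0.205, 0.12 and 0.199.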

How the results depend on the processing

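The 162 results for member probe sets (18 in 9 contrasts) were recomputed under up to 24 alternatives, 3654 values in all. Of these 3564 stayed on their side of the threshold, 82 lost a call, 8 gained one and 0 reversed a called direction; 133 values that were uncalled before and after changed sign. The fall of Sema3d in LSEC kept its call in the 23 alternatives that tested it; its probe set did not pass the 60th percentile filter, where Sema3g kept its call. The count of called members in LSEC was 2, and 1 under the values as deposited, median centring, no filter, the 60th percentile filter, trend and robust variance, only the arrays compared, a 2-fold limit, the replicate block and the crossed block; leaving out 1 array gave 1 to 2. For LSEC against lung it was 2, then 1 with the 60th percentile filter and 0 with no filter, only the arrays compared or either block; leaving out 1 array gave 0 to 2. For LSEC against thymus it was 1, and 0 with no filter, the 60th percentile filter, only the arrays compared or either block; leaving out 1 array gave 0 to 1. In control mice, one test per gene gave 4, 6 and 7 called genes, where 12, 11 and 16 probe sets of 6, 7 and 9 genes had been called. The brightest probe set stood for each gene, and those of Sema3c and Sema3f, 1420696_at and 1438947_x_at, were not called between LSEC and lung. For the other counts the cause was not tested. Over all probe sets, the 1412 calls in LSEC ranged from 368 to 1678 over alternatives other than leaving out an array, the 9 in lung from 0 to 31 and the 121 in thymus from 6 to 201; leaving out 1 array gave 925 to 1514, 4 to 19 and 16 to 329. The differences gave 88 (0 to 214), 446 (29 to 714) and 6 (2 to 27), and the control comparisons 11713 (3141 to 11866), 17853 (8314 to 19964) and 16819 (7921 to 18180).

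Deviations of same-numbered arrays correlated at -0.24 to 0.07, and pairing itself was not tested. The replicate block is given here by itself. It left 600 calls over all probe sets in LSEC, 0 in lung and 7 in thymus, and of the members it kept Sema3d in LSEC. The crossed block in lung, run after a correlation of -0.21 was seen there, and the alternatives on neuropilins, floxed genes and other lists were added after seeing the data. Scaling moved the median of all probe sets by over 0.1 in 1 comparison, control LSEC against thymus, to -0.12 with the values as deposited and 0.11 with median centring, from 0.02. The limits are 2 or 3 arrays a group, values under 6.87 whose sizes are uncertain, and probe sets of 1 gene that disagree.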
